A study of Arabidopsis thaliana with 30 samples.

Results

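The comparison described here sets ethanol-treated against water-treated Arabidopsis shoots at the moment drought began, 0 days after the onset of drought (0 DAD). It holds 6 of the 30 libraries of the series. Of these, 3 came from plants whose pots had stood in 10 mM ethanol for 3 days, and 3 from plants whose pots had stood in water. The libraries were picked by their labels, but the comparison was chosen with earlier results of these data known. All plants in it were Col-0 wild type, raised for 10 days on MS medium and then for 5 days in granular ceramic soil, and the pots of both groups stood in liquid until the harvest. The other 24 libraries come from the same pretreatments at 1, 3, 5 and 7 DAD. The labels number the libraries of a group without saying which plants went into each, so the spread between libraries of a group may be partly technical. The p-values measure that spread pooled over all 30 libraries, not over the 6 libraries of 0 DAD alone.

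Plants oxidize ethanol to acetaldehyde and acetate, and acetate enters central carbon metabolism as acetyl-CoA. In leaves, carbon status is read by a set of genes that rise in darkness or when sugar runs low, many of which recycle carbon and nitrogen from amino acids. The circadian clock runs through morning-phased genes such as CCA1, which repress evening-phased genes such as LUX and PRR5. Aliphatic glucosinolates are sulfur-rich defense compounds of the cabbage family made from methionine, and anthocyanins are flavonoid pigments made from phenylalanine.

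The 3 ethanol libraries held 3625884, 4037295 and 8972912 counted reads, and the 3 water libraries 7711842 to 11855287. Thinned to the same total, the libraries showed 18667 to 19188 genes with a read in ethanol and 18994 to 19476 in water. The tissue label was borne out by the markers: the 41 photosynthesis genes summed to 181800 to 231900 CPM, counts scaled to the same library size, in ethanol and 187800 to 247900 CPM in water, whereas the 11 root markers together had 4, 1 and 0 reads in ethanol, against 4, 1 and 10 in water. Guard cell markers overlapped between the groups (1372 to 1637 CPM in ethanol, 1356 to 1630 CPM in water). Of the other marker lists, 11 tested xylem genes summed to 97.3 to 108 CPM in ethanol, against 113 to 114 CPM in water, and 3 trichome genes to 2.73 to 7.15 CPM in ethanol, against 7.94 to 9.13 CPM in water, and no gene of either list was called. In whole shoots fewer cells of a type and less RNA per cell cannot be told apart.

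A small share of the tested genes was called between ethanol-treated and water-treated shoots. A gene not called may still differ, and 12.6% of tested genes had an unadjusted p under 0.05 by edgeR. edgeR's quasi-likelihood test with Benjamini-Hochberg adjustment called 330 of 19249 tested genes at an adjusted p under 0.1, or 1.71% of those tested, with 147 higher (0.764%) and 183 lower (0.951%) in ethanol. The 330 hold 4 pairs of neighbouring loci whose counts agreed within 1% in all 6 libraries, so that the members of a pair are not separate observations. Most of the changes were below 2-fold: 45 of the higher and 48 of the lower genes passed that size (0.234% and 0.249% of those tested), and the median change was 0.82 on the log2 scale among the higher and -0.74 among the lower genes. The higher genes were also the more abundant, with a median of 61.9 CPM against 29.7 CPM for the lower genes and 12.1 CPM for all tested genes. In 322 of the 330 genes the 3 ethanol values lay wholly above or below the 3 water values, an arrangement found in 15.9% of all tested genes. The calls were made from these same values, so this separation follows from the selection and is no further support for them. The plot of change against level shows called genes of both signs at almost every level.

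**Figure D1:**
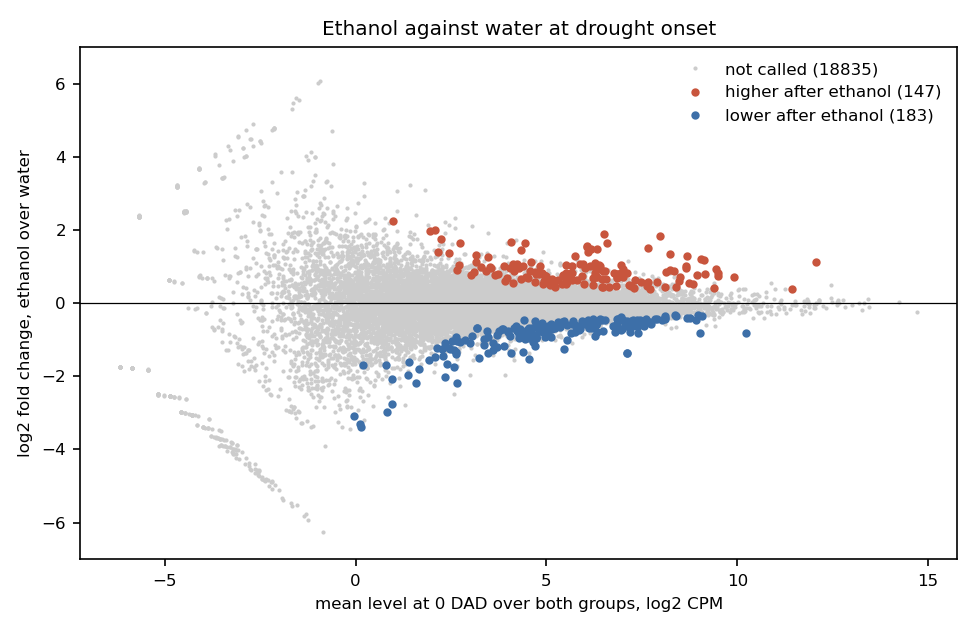
Log2 fold change of ethanol over water at 0 DAD (vertical axis) against the mean level of both groups in log2 CPM (horizontal axis), one point per tested gene with at least 1 read at 0 DAD. The 147 genes higher after ethanol and the 183 lower are coloured, and most lie within 1 unit of 0.

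The count of called genes depended on the libraries. Without water replicate 2 it was 67, without ethanol replicate 2 it was 124, and without ethanol replicate 1, water replicate 3 or ethanol replicate 3 it was 193, 197 and 264. With the 6 libraries fitted alone, 77 of 17039 genes were called (0.452%), 57 higher and 20 lower in ethanol, and 64 of these were among the 330. Of the 330, 44 were called in every one of the 6 fits that left out 1 library, and 25 in none. DESeq2 on all 30 libraries called 571 genes (2.97%), 313 of the 330 among them. After thinning the 6 libraries to the lowest total, 260 genes were called (1.36%), of which 226 were among the 330. The remaining calls of the 330 were not made at that depth, and the values of single libraries are given for the genes below.

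The genes with the smallest p-values were not from 1 pathway. AT1G73600, annotated as an S-adenosylmethionine-dependent methyltransferase, had 76.5, 67.5 and 88.2 CPM in ethanol, against 194, 209 and 195 CPM in water. It fell by 1.36 on the log2 scale (SE 0.18, edgeR adjusted p = 0.0002258), and the groups were far apart. AT1G73602 had the same ethanol values because the authors let a read count for every gene it overlaps, and is not a separate observation. AT5G62360, of the invertase and pectin methylesterase inhibitor family, stood at 106, 145 and 177 CPM in ethanol against 30.1, 44.7 and 41.3 CPM in water, a rise of 1.89 (SE 0.25, adjusted p = 0.0002258).

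The chloroplast gene ATCG00440, for which no symbol was matched, was the most abundant of these, with 5512, 6536 and 5416 CPM in ethanol, against 2591, 3044 and 2422 CPM in water. It rose by 1.12 (SE 0.16, adjusted p = 0.0003231), and it was the only called gene of 82 tested chloroplast-encoded genes, whose median change was -0.16. Over all tested genes 1.71% were called. Reads of the chloroplast genome as a whole made up 2.17 to 2.3% of the counts in ethanol and 2.02 to 2.16% in water. KT2/3, a phloem potassium channel, had 6.56, 7.12 and 7.26 CPM in ethanol, against 17.1, 18.8 and 15.5 CPM in water, a fall of 1.28 (SE 0.18, adjusted p = 0.0003231). AT1G29670, a GDSL lipase-like gene, AT1G61740, of a sulfite exporter family, and NUDT8, a nudix hydrolase, rose by 0.96, 0.88 and 1.52 on the log2 scale. PMI2, which acts in chloroplast movement, and the uncharacterized AT5G23920 fell by 1.74 and 0.99, and all of these genes were called in each fit that left out 1 library.

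Some genes of sugar starvation and darkness rose after ethanol. This list and the others here, unless marked as drawn up later, were written with earlier results of these data known. Their counts are therefore not independent support. Over all tested genes 0.764% were called higher and 0.951% lower, the shares to set beside each list's calls. Of the 19 tested genes of that list, 5 rose and none fell, all 19 had a positive fold change, as did 48.1% of all tested genes, and the median was 0.48, against -0.02 over all tested genes. DIN10, a raffinose synthase first found as a dark-induced gene, had 901, 1008 and 843 CPM in ethanol, against 520, 484 and 447 CPM in water, a rise of 0.92 (SE 0.16, adjusted p = 0.0042). ERD5, the proline dehydrogenase that opens proline breakdown, had 312, 349 and 229 CPM in ethanol against 132, 104 and 78.9 CPM in water. Both groups were clearly apart, and both genes held their call in every fit that left out 1 library.

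ASN1, the asparagine synthetase that rises when carbon is short, had 479, 646 and 623 CPM in ethanol, against 154, 242 and 326 CPM in water, a rise of 1.28 (SE 0.31, adjusted p = 0.042). BCAT2, which starts the breakdown of branched-chain amino acids, rose by 1.44 and DRM2 (AT2G33830), a dormancy-associated gene, by 1.18. The water values of DRM2 ran from 196 to 528 CPM, and the calls of ASN1 and DRM2 held in 3 and 2 of the 6 fits without 1 library. The list had 3 or 4 called genes in each of those fits. The next members by p were IVD, GDH2 and SEN1 (AT4G35770), at 0.54, 0.56 and 0.83, none of which was called. On the mean over the list, the 3 ethanol libraries lay 0.60 to 0.66 log2 units above the mean of the water libraries, and the water libraries within -0.12 to 0.13 of it. Picked after their values were seen, the monosaccharide transporter STP1 (1146, 1239 and 1205 CPM in ethanol against 626, 736 and 833 CPM in water), the vacuolar glucose exporter ERDL6 and the autophagy gene ATG8E rose by 0.71, 0.87 and 0.57.

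**Figure D2:**
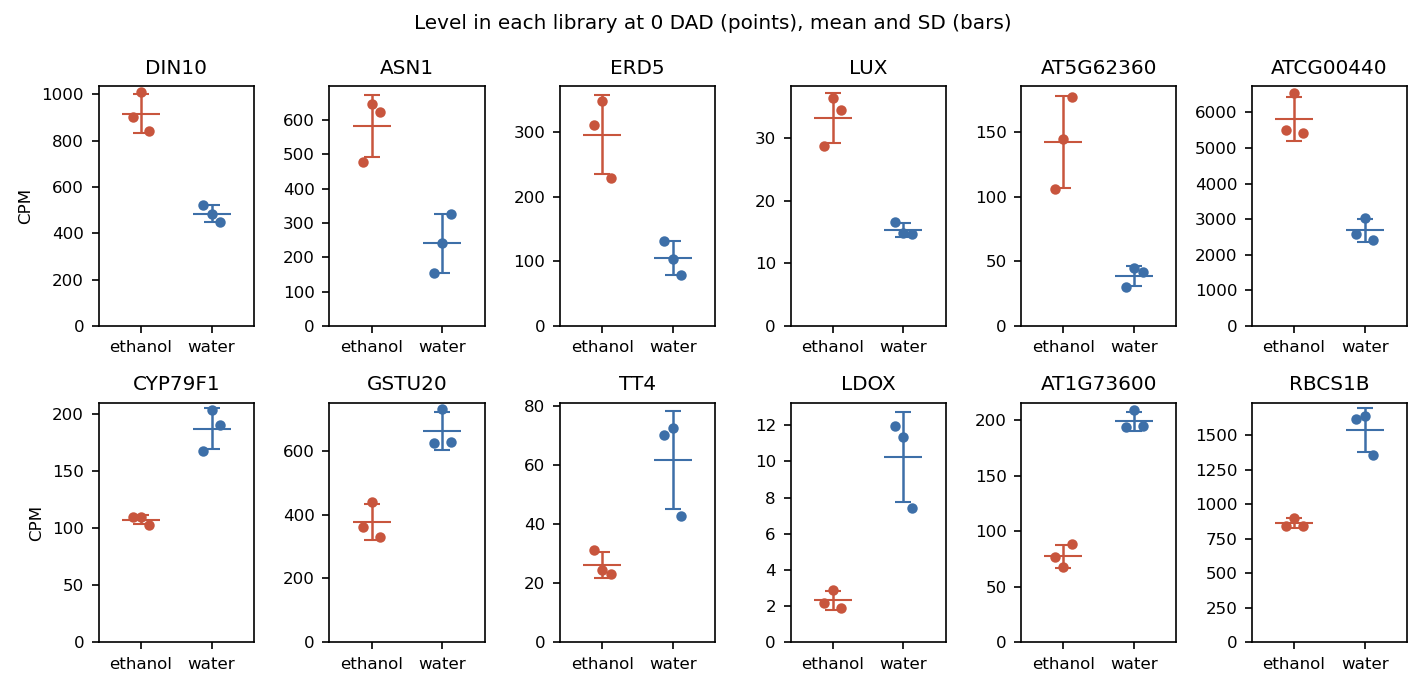
Level in CPM of 12 genes in each library at 0 DAD, ethanol at left and water at right, with the mean and SD of 3 libraries; every vertical axis starts at 0. The upper row holds genes higher after ethanol and the lower row genes lower after ethanol, and in none of the 12 do the groups overlap.

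Of the evening genes of the circadian clock, 5 of 12 tested genes were higher after ethanol and none lower, 11 had a positive fold change, and the median was 0.72. LUX, a DNA-binding part of the evening complex, had 28.7, 36.4 and 34.5 CPM in ethanol, against 16.6, 14.8 and 14.7 CPM in water, a rise of 1.11 (SE 0.21, adjusted p = 0.01). PRR5, a repressor of morning genes, had 56.6, 74.9 and 74.4 CPM in ethanol against 26.5, 32.6 and 43.0 CPM in water, a rise of 1.02. FKF1, a blue-light receptor of the flowering pathway, COR27 and AT4G33980 rose by 1.04, 1.97 and 1.65. TOC1, ELF3 and BOA, with fold changes of 0.40, 0.56 and -2.57, were not called, and BOA was below 2 CPM in every library.

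Among 11 morning clock genes, CCA1 alone was called, with 19.7, 9.23 and 13.1 CPM in ethanol, against 28.0, 22.0 and 20.5 CPM in water, a fall of 0.76 (SE 0.21, adjusted p = 0.085), and the list's median was 0.00. The call of CCA1 held in 2 of the 6 fits without 1 library. Over all tested genes 0.951% were called lower. The evening list without water replicate 2 had 2 called genes and a median of 0.59, and without water replicate 1, ethanol replicate 2 or ethanol replicate 3 it had 3. With the 6 libraries fitted alone it had 2. The labels give no hour of harvest, so a difference in the time of day between the groups was not tested. Picked after its values were seen, the clock-driven RNA-binding protein gene GRP7 had 604, 778 and 769 CPM in ethanol, against 322, 414 and 503 CPM in water, a rise of 0.80.

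Cold-responsive genes overlapped with the evening genes. Of 18 tested genes of the cold regulon 4 rose and none fell, with a median of 0.43, and 2 of these, COR27 and AT4G33980, are in both lists. GolS3, which makes galactinol for raffinose synthesis, had 5.19, 4.48 and 10.3 CPM in ethanol, against 1.34, 1.80 and 2.26 CPM in water, a rise of 1.99 (SE 0.36, adjusted p = 0.0071). The dehydrin COR47 had 435, 470 and 719 CPM in ethanol, against 218, 258 and 332 CPM in water, a rise of 1.01. KIN2, COR413IM1 and ERD10, at 0.71, 0.75 and 0.83, were not called, and the cold regulators DREB1A, DREB1B and DREB1C were at -1.01, -1.06 and -0.23, also not called. Without ethanol replicate 3 the list's median was 0.10 and 1 gene was called, and without water replicate 1 or 2 it had 2 called genes.

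A few jasmonate genes were higher after ethanol. Of 33 tested genes 4 rose and none fell, with a median of 0.32. OPR3, an enzyme of jasmonate synthesis, had 85.3, 75.2 and 158 CPM in ethanol, against 65.1, 42.7 and 40.9 CPM in water, a rise of 1.11 (SE 0.26, adjusted p = 0.032), and AOC1, which acts before it, had 56.6, 63.3 and 174 CPM in ethanol, against 64.9, 23.8 and 23.9 CPM in water, so that the AOC1 groups overlapped. The repressor genes JAZ2 and JAZ9 rose by 0.79 and 0.97. LOX3, JAZ7 and MYC2, at 1.25, 2.12 and 0.92, were not called. Without ethanol replicate 3, water replicate 2 or water replicate 3 no jasmonate gene was called, nor was any with the 6 libraries fitted alone. Without water replicate 1, the water library with the highest jasmonate mean, 8 were called and the median was 0.75.

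Hormone genes of ethylene and abscisic acid gave few calls, but a larger share than the 0.764% of all tested genes called higher. Of 17 tested ethylene genes 15 had a positive fold change, against 48.1% of all tested genes, and the median was 0.26. In the ethylene list 3 of 17 genes rose: the transcription factor gene EIN3, by 0.42, its F-box regulator EBF1, by 0.50, and EDF1, by 0.72. EDF1 had 144, 165 and 173 CPM in ethanol against 105, 87.4 and 99.7 CPM in water, and no call in this list was made in 4 of the 6 fits that left out 1 library. Among 24 genes of abscisic acid synthesis, breakdown and signaling only the receptor genes PYL4 and PYL5 were called, by 0.84 and 1.05, with a list median of 0.02. None was called without water replicate 2, water replicate 3, ethanol replicate 1 or ethanol replicate 2, or with the 6 libraries fitted alone, 1 was called without ethanol replicate 3, and without water replicate 1 the list had 2 higher and 1 lower. PYL4 had 346, 423 and 312 CPM in ethanol, against 258, 200 and 147 CPM in water. PYL6, ABA2 and AAO3, at 1.40, -0.60 and 0.42, were not called.

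Of 16 drought markers 1 was called, where 0.764% of all tested genes were called higher: PUB18, a ubiquitin ligase gene of the drought response. It had 1.09, 2.90 and 5.86 CPM in ethanol, against 1.00, 0.138 and 0.925 CPM in water, a rise of 2.24 (SE 0.60, adjusted p = 0.07), with the groups close to touching. It was called in 2 of the 6 fits without 1 library, those without water replicate 1 or ethanol replicate 1, and it was not called after thinning (adjusted p = 0.11 with edgeR). DESeq2 gave it no adjusted p, and it was below the filter with the 6 libraries fitted alone. HB12, RD20 and LTI78, at 0.59, 0.34 and 0.49, were not called. Among 16 genes that the study's text discusses, GolS3 was called. The others included NCED3 (4.92, 7.12 and 7.97 CPM in ethanol against 3.93, 6.36 and 8.22 CPM in water), which makes the committed step of abscisic acid synthesis, and P5CS1, the proline synthesis enzyme, at -0.29.

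Genes that handle ethanol itself did not pass the test. None of 9 tested genes leading from ethanol to acetyl-CoA was called by edgeR, none by DESeq2, and none had an unadjusted p under 0.05. Over all tested genes edgeR called 1.71%, DESeq2 2.97%, and 12.6% had an unadjusted p under 0.05. At those shares a list of 9 or 10 genes may have none without differing from other genes. ADH1, alcohol dehydrogenase, had 16.7, 9.76 and 11.4 CPM in ethanol, against 27.3, 11.9 and 9.45 CPM in water, so that the groups overlapped at -0.40 (SE 0.31). PDC1 and PDC2, pyruvate decarboxylases, were at -0.97 and 0.31, and the aldehyde dehydrogenases ALDH2B4, ALDH2B7 and ALDH2C4 at 0.15, -0.27 and 0.11. The glyoxylate cycle and gluconeogenesis list, by which acetyl-CoA can feed sugar synthesis, also had no call among 10 genes by either tool, and none at an unadjusted p under 0.05; its CSY3, FBP and PCK2 stood at 0.24, -0.13 and 1.32.

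Of 23 tested aliphatic glucosinolate genes 9 fell after ethanol and none rose, all 23 had a negative fold change, 14 had ethanol values wholly below the water values, against 8.56% of all tested genes, and the median was -0.56. CYP79F1, which makes the first committed step from chain-elongated methionine, had 110, 109 and 103 CPM in ethanol, against 168, 203 and 190 CPM in water, a fall of 0.80 (SE 0.15, adjusted p = 0.0088). GSTU20, placed by coexpression in the same pathway, had 362, 439 and 330 CPM in ethanol against 624, 730 and 628 CPM in water. In both genes the groups were well apart.

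Chain elongation gave IPMI1, IPMI2 and IMD1, which fell by 0.81, 0.79 and 0.52 on the log2 scale. The late steps gave AT2G31790, a glycosyltransferase, which fell by 0.77, and, named here after their values were seen, the sulfotransferase gene SOT18 (-0.54) and the S-oxygenase gene FMOGS-OX3 (-0.77), with the activator gene MYB29 at -1.13. MYB29 had 4.65, 3.69 and 9.84 CPM in ethanol, against 9.61, 16.9 and 17.3 CPM in water. SOT17, BAT5 and CYP83A1, at -0.70, -0.54 and -0.52, were not called. The list's count ranged over 3 to 10 genes in the fits that left out 1 library, with 3 without water replicate 2 or ethanol replicate 2, 5 without water replicate 3, ethanol replicate 1 or ethanol replicate 3, and 3 with the 6 libraries fitted alone, and the libraries' means over the list were 0.47 to 0.66 log2 units below the water mean in ethanol, with water within -0.16 to 0.14. Of 15 indole glucosinolate genes, which start from tryptophan, none was called by edgeR or DESeq2 and 2 had an unadjusted p under 0.05, with a median of -0.13. Over all tested genes edgeR called 1.71%, and 12.6% had an unadjusted p under 0.05.

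In the sulfur-deficiency list 2 of 13 tested genes were called: APR1 and APR3, which reduce activated sulfate, fell by 0.70 and 1.17. The list's median was -0.70, and 0.951% of all tested genes were called lower. APR3 had 17.5, 16.4 and 14.8 CPM in ethanol, against 50.8, 33.3 and 23.9 CPM in water. SDI1, LSU1 and LSU3, which mark sulfur deficiency in leaves, were at -1.79, -1.04 and -1.61 at levels under 6 CPM and were not called. Without water replicate 1 the list's median was -0.29, and 1 gene was called without that library, water replicate 2, ethanol replicate 2 or ethanol replicate 3, and none with the 6 libraries fitted alone.

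A list of 16 genes of methionine and phosphocholine methylation was drawn up after the values were seen, so its counts describe the genes picked and support nothing about the pathway. Of these 5 were called, all lower, with 1 call without water replicate 2, 2 without water replicate 1, ethanol replicate 2 or ethanol replicate 3, 3 without ethanol replicate 1, and 2 with the 6 libraries fitted alone. MS2 (AT3G03780), methionine synthase, had 119, 141 and 110 CPM in ethanol, against 195, 251 and 205 CPM in water, a fall of 0.82 (SE 0.17, adjusted p = 0.018). SAHH2, which clears S-adenosylhomocysteine, fell by 0.62, XPL1, a phosphoethanolamine methyltransferase whose counts equal those of AT3G17998, by 0.95, SERAT2;1, which makes the cysteine precursor O-acetylserine, by 0.70, and AT1G73600 is also in this list. MS1, at -0.37, and SAHH1, at -0.08, were not called.

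Of 22 tested flavonoid genes 2 fell after ethanol and none rose, 21 had a negative fold change, 10 had ethanol values wholly below the water values, against 8.56% of all tested genes, and the median was -0.79, or -0.75 with the 2 genes that had no reads in 1 group set at the limit of 3 counts. TT4, chalcone synthase, the first enzyme of the pathway, had 31.2, 24.5 and 23.1 CPM in ethanol against 70.0, 72.6 and 42.6 CPM in water, a fall of 1.24 (SE 0.24, adjusted p = 0.011). LDOX, a late enzyme of anthocyanin synthesis, had 2.19, 2.90 and 1.88 CPM in ethanol, against 11.9, 11.3 and 7.40 CPM in water, a fall of 2.19 (SE 0.52, adjusted p = 0.037). Without water replicate 2 or ethanol replicate 1, 1 flavonoid gene was called. LDOX shares 373 bases at 96% identity with AT4G22870, so that some reads could belong to either. AT1G06000, FLS1 and UGT78D2, at -0.89, -0.82 and -0.73, were not called.

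**Figure D3:**
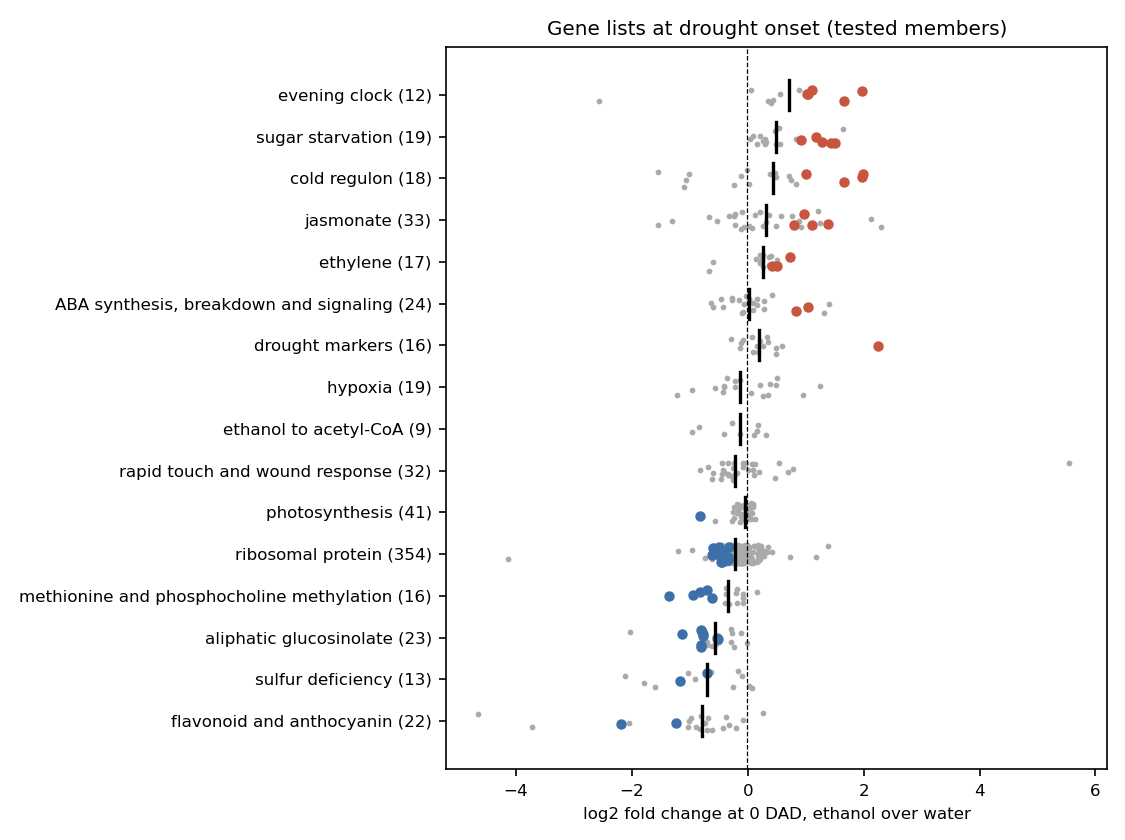
Log2 fold change of ethanol over water at 0 DAD for the tested members of 16 gene lists, with the number tested in parentheses. Called genes are large and coloured, black bars mark each list's median, and the dashed line marks the median of all tested genes, -0.02; the evening clock median is 0.72 and the flavonoid median -0.79.

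By a rule set after the values were seen, 354 tested nuclear genes whose RefSeq product names a ribosomal protein were taken, organellar ones included, and their counts describe the genes picked. Of these 17 fell and none rose, 51 had a positive fold change, and the median was -0.21. Together they summed to 57230 to 60180 CPM in ethanol, against 66060 to 69920 CPM in water, so that the groups did not overlap, and in 160 of the 354 genes the ethanol values lay wholly below the water values, against 8.56% of all tested genes. The 17 called genes fell by 0.32 to 0.62 on the log2 scale. AT4G16720, of the L23/L15e family, had 292, 286 and 305 CPM in ethanol, against 372, 365 and 364 CPM in water, and AT5G60670, of the L11 family, fell by 0.59. The number called was 0 without ethanol replicate 2, 1 without water replicate 2, 6 and 7 without water and ethanol replicate 1, and 0 with the 6 libraries fitted alone.

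The photosynthesis list gave 1 call of 41 genes, near the 1.71% called over all tested genes, with a median of -0.04. RBCS1B, a small subunit gene of Rubisco, had 844, 902 and 844 CPM in ethanol, against 1614, 1637 and 1354 CPM in water, a fall of 0.83 (SE 0.19, adjusted p = 0.028), and it was not called without water replicate 2. The main small subunit gene RBCS1A had 21650, 27470 and 25000 CPM in ethanol, against 27300, 30650 and 29200 CPM in water, at -0.23 (SE 0.14), and was not called. Of 9 tested antioxidant enzyme genes 1 was called lower and 1 higher, both catalases, where 1.71% of all tested genes were called. CAT2 (AT4G35090), the catalase of photorespiration, had 355, 392 and 367 CPM in ethanol, against 552, 475 and 466 CPM in water, and fell by 0.42. CAT3 (AT1G20620) had 3250, 3005 and 3221 CPM in ethanol, against 2174, 2498 and 2572 CPM in water, and rose by 0.39. Neither catalase call was made in any fit that left out 1 library. CAT1 (AT1G20630), at 0.34, was not called, with 81.2, 70.2 and 82.3 CPM in ethanol, against 59.3, 59.5 and 65.6 CPM in water.

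Of 30 auxin, brassinosteroid and cell expansion genes 2 were called, both higher, where 0.764% of all tested genes were called higher. XTR7, a xyloglucan-modifying enzyme of the cell wall, had 25.7, 26.4 and 24.5 CPM in ethanol, against 10.2, 7.75 and 6.06 CPM in water, a rise of 1.67 (SE 0.45, adjusted p = 0.078), and HAT2, an auxin-responsive homeodomain gene, rose by 0.77. XTH4, EXPA8 and BR6OX2, at 0.78, -1.36 and 0.71, were not called. With the 6 libraries fitted alone the list had 2 called genes, both higher, and XTH4 was called (edgeR adjusted p = 0.036). XTH4 had 612, 737 and 620 CPM in ethanol, against 371, 381 and 392 CPM in water. The list had no call without water replicate 2 or any 1 of the 3 ethanol libraries, 1 without water replicate 3, and 1 higher and 2 lower without water replicate 1.

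The remaining genes with the largest rises were AT1G72416 (1.84), RTFL21 (1.74), AT3G59350 (1.65), AT2G34930 (1.63) and ERD7 (1.56). AT1G72416, with a DnaJ chaperone domain, had 354, 540 and 293 CPM in ethanol, against 176, 104 and 50.9 CPM in water, and AT3G59350, a protein kinase, had 147, 144 and 150 CPM in ethanol, against 69.2, 38.6 and 32.7 CPM in water. ERD7, a dehydration-associated gene, had 41.8, 61.5 and 194 CPM in ethanol, against 34.8, 30.8 and 37.2 CPM in water, and its size came mostly from ethanol replicate 3. The genes with the largest falls were nearly all low. MTPB1, a metal transporter, had 3 reads in ethanol and 61 in water in all, a ratio of 0.089 with an exact 95% counting interval of 0.0179 to 0.273, and its call was made in no fit that left out 1 library. AT3G47580, a receptor-like kinase, had 0, 0 and 7 reads in ethanol and 43, 36 and 11 in water.

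AT1G67880, a glycosyltransferase family gene with 1.37, 0.791 and 3.16 CPM in ethanol, against 10.0, 9.68 and 5.34 CPM in water, fell by 2.02 and was called in every fit that left out 1 library. AT5G46220, CYP71A25 and AT4G20820 fell by 2.77, 2.19 and 2.06, and AT3G45680, AT1G74875, AT1G68710 and AT2G41000 by 1.97, 1.79, 1.70 and 1.68. All 7 were under 6 CPM in every library.

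Many lists had no called member in edgeR's test, which called 1.71% of all tested genes, so no call in a list this short is near that share. Over all tested genes 12.6% had an unadjusted p under 0.05 and DESeq2 called 2.97%. None was called among 32 rapid touch and wound genes (3 with an unadjusted p under 0.05, 0 by DESeq2), 19 hypoxia genes (1 and 0), 19 salicylate and defense genes (1 and 0), 17 heat shock genes (0 and 0), 18 cell cycle genes (4 and 0), 22 starch genes (3 and 1), 13 iron genes (2 and 1), 13 nitrate genes (4 and 1) or 11 phosphate starvation genes (0 and 0). The touch and hypoxia lists were highest in replicate 1 of both groups: replicate 1 of ethanol and of water lay 0.43 and 0.52 log2 units above the water mean on the touch list, and 0.50 and 0.67 on the hypoxia list, while the other 4 libraries lay below it. Without water replicate 1 the touch median was 0.24 and the hypoxia median 0.49, against -0.23 and -0.13 with it.

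The genes called at 0 DAD were then followed through the drought, in libraries that the 0 DAD comparison does not use. They were picked for their effects at 0 DAD, so smaller medians in other libraries are partly built in. A drop in the medians alone does not show a loss of the effect. At 1 DAD the 147 higher genes had a median of 0.08 and the 183 lower genes a median of -0.07, and 94 and 129 of them kept their sign, or 63.9% and 70.5%, where 50.5% of all tested genes were positive and 49.3% negative. No gene was called at 1 DAD by edgeR (587 at an unadjusted p under 0.05) or DESeq2, and the test of the difference between the effects of the 2 days called 7 genes (0.0364%), all of them among the 330, and 2 to 15 when 1 library was left out. That test uses the same 0 DAD values by which the 330 were called, so the presence of all 7 among the 330 is partly built in. At 3 DAD the medians were 0.07 and -0.07. Of the 191 genes called that day (0.992%), 6 were also called at 0 DAD, where 1.71% of all tested genes were called. PUB18 and EDF1 were higher on both days, and AT2G24280, WRKY11, AT5G64550 and AT5G64552 were lower at 0 DAD and higher at 3 DAD. The last 2 had identical counts in all 6 libraries at 0 DAD and count as 1 observation. Whether so small an overlap exceeds that share was not tested. At 5 DAD the medians were 0.08 and -0.04, and edgeR called no gene (783 at an unadjusted p under 0.05, 13 by DESeq2).

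Averaged over 1, 3 and 5 DAD, with 9 ethanol against 9 water libraries, 55 genes were called (0.286%). Of these the RING-finger gene AT1G02610 and STP1 had also been called at 0 DAD, higher both times, where 1.71% of all tested genes were called. The count of 55 became 159 without ethanol replicate 3 of 3 DAD and 23 to 56 without any other of the 18 libraries. At 7 DAD, where 60.5% of all genes were called, the signs of the lower genes turned: 128 of the 183 were called higher in ethanol and 25 lower, with a median of 0.97, against 32% of all tested genes called higher. Of the 147 higher genes 49 were called higher and 70 lower, with a median of -0.22, where 28.6% of all tested genes were called lower. By list, the aliphatic glucosinolate median was -0.56 at 0 DAD, -0.10 at 1 DAD, -0.02 at 3 DAD, -0.03 at 5 DAD and 3.35 at 7 DAD, and the sugar starvation median 0.48, 0.22, 0.11, 0.21 and -1.24 on the same days. The evening clock median ran from 0.72 at 0 DAD through 0.20, 0.24 and 0.06 to -1.22.

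**Figure D4:**
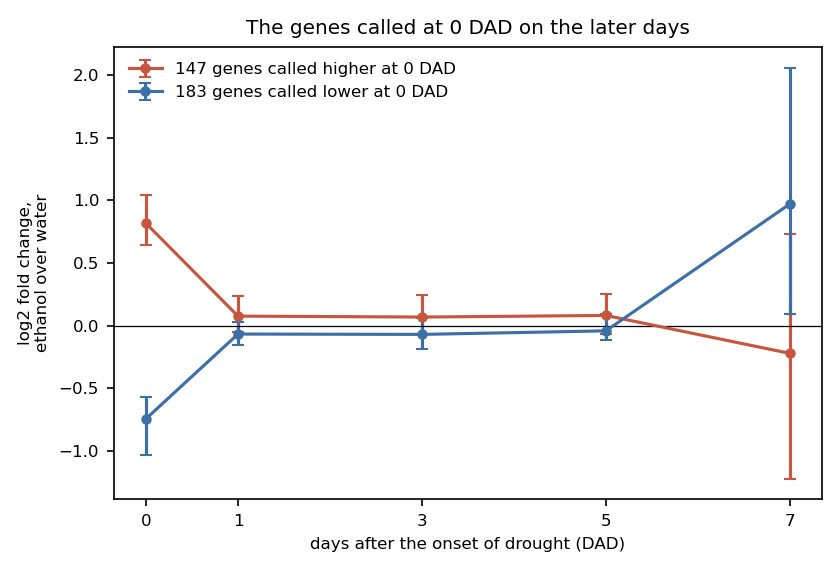
Median log2 fold change of ethanol over water on each day of drought (DAD) for the 147 genes called higher and the 183 called lower at 0 DAD; bars span the quartiles over genes. Both medians lie within 0.09 of 0 at 1, 3 and 5 DAD and on the other side of 0 at 7 DAD. The genes were picked by their values at 0 DAD, so smaller medians later are partly built in.

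**Figure D5:**
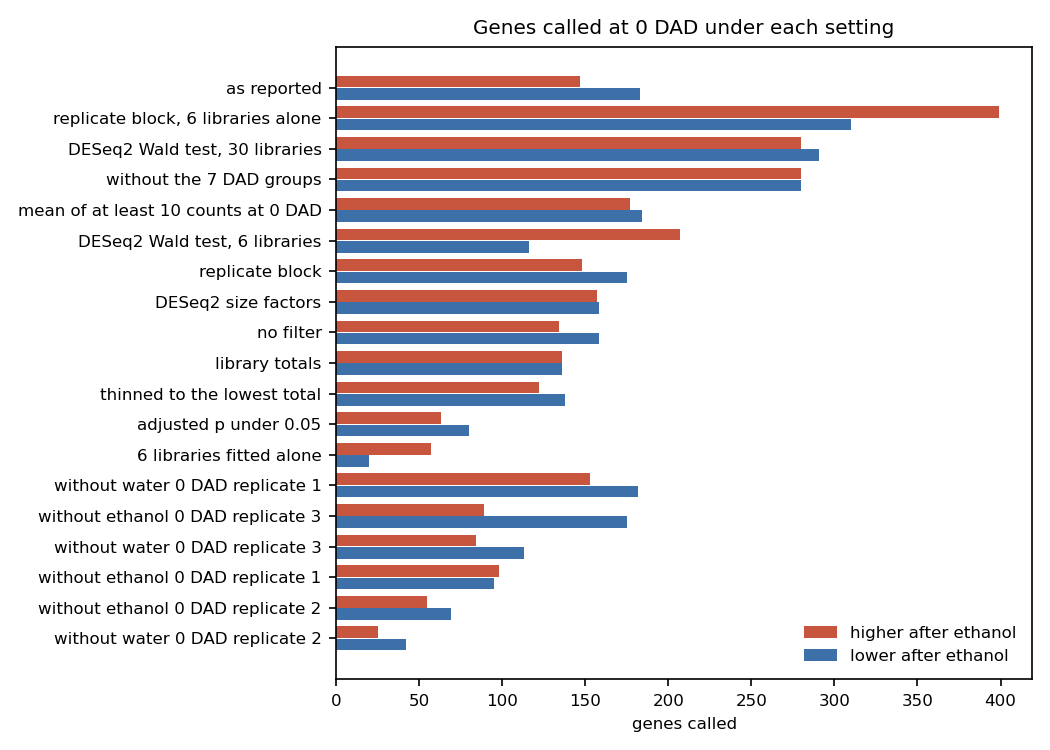
Number of genes called higher (red, upper bar) and lower (blue, lower bar) after ethanol at 0 DAD under each processing setting, with the reported setting at the top. The counts run from 67 genes without water replicate 2 to 709 with the 6 libraries alone and the replicate number as a block.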

How the data were processed

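Shoot RNA was sequenced from 3' ends as Lasy-Seq libraries. The authors trimmed reads with Trimmomatic, aligned them to TAIR10 with HISAT2 and counted them per gene, strand-specifically, with featureCounts, letting a read count for each gene it overlaps. The deposited raw counts were used. The normalized table was not used here.

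Counts of all 30 libraries (3 per group, 10 groups) were fitted in edgeR 4.0.16 under R 4.3.3. Genes passing filterByExpr by group (19249 of 27417, holding 99.95% of counts) were scaled by TMM and tested with the quasi-likelihood F-test, with 20 residual degrees of freedom. Adjusted p-values under 0.1 were called. Standard errors are the fold change over the root of F. CPM are TMM-scaled. List means use log2(CPM + 1). DESeq2 1.42.0 served as an alternative. Code was tested on simulated data. Counting intervals cover counting error only.

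Names came from RefSeq TAIR10.1 (26720 identifiers matched). Its coordinates served to find overlapping genes and to cut out gene sequences for the search for copies, and no sequences are shown. Copies of at least 95% identity over at least 100 bases (BLAST 2.17.0) existed for 8 called genes. In RefSeq 18 called genes overlapped another on the same strand, and 5 had no entry and could not be checked so. Neighbouring loci (numbers within 10) with at least 60 counts that agreed within 1% gave 6 further called genes, 24 in all.

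Named genes were the 12 highest and 12 lowest called genes with separate groups and a mean of at least 10 counts, the 10 smallest p-values, up to 6 called and 3 further genes per list, and 16 genes of the study's text. The comparison, the lists and the rule were chosen with earlier results of these data known. Alternatives changed scaling, filter, tool, libraries, block, depth and threshold. Libraries of 1 group differed by more than sampling noise.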

Additional observations from a re-analysis of the deposited data

Results flagged for a closer look

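For 7 genes the ethanol effect at 1 DAD differed from that at 0 DAD by a test of the difference itself (edgeR, 0.0364% of tested genes, 1258 at an unadjusted p under 0.05, and 42 by DESeq2). The test includes the 0 DAD values, so it favours genes with large effects at 0 DAD. GolS3 had the largest change, -2.97 (SE 0.50, adjusted p = 0.017): it averaged 6.66 ± 3.18 CPM in ethanol, against 1.80 ± 0.46 CPM in water at 0 DAD, and 2.79 ± 0.75 CPM in ethanol, against 5.42 ± 0.60 CPM in water at 1 DAD (SD, n = 3 each; edgeR). AT5G62360 changed by -2.14, AT1G61740 by -1.11 and NUDT8 by -1.67, and in each the groups were close at 1 DAD. AT1G73600 changed by 1.33, with AT1G73602, which shares its reads, at 1.32. It averaged 77.4 ± 10.4 CPM in ethanol, against 199 ± 8.41 CPM in water at 0 DAD, and 341 ± 9.10 CPM in ethanol, against 349 ± 44.7 CPM in water at 1 DAD. ATCG00440 changed by -1.15: it averaged 5821 ± 621 CPM in ethanol, against 2685 ± 322 CPM in water at 0 DAD, and 5520 ± 499.9 CPM in ethanol, against 5667 ± 2060 CPM in water at 1 DAD, so that the water libraries of 0 DAD stood apart from the other groups.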

How the results depend on the processing

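At 0 DAD the count of called genes was 571 with DESeq2 on all 30 libraries (280 higher, 291 lower), 77 with the 6 libraries fitted alone (57 and 20), 560 without the 7 DAD groups (280 and 280) and 143 at an adjusted p under 0.05 (63 and 80), against 330 (147 and 183). DESeq2 on the 6 libraries called 116 lower genes. Fits that each left out 1 library gave 67 to 335 genes, 25 to 153 higher and 42 to 182 lower. The share called higher was 44.5% in all, 74% with the 6 libraries alone and 64.1% with DESeq2 on them. The change of the effect between 0 and 1 DAD had 42 genes with DESeq2 (21 higher, 21 lower) and 2 to 15 when 1 library was left out (0 to 7 higher, 2 to 8 lower). Without water replicate 1 of 0 DAD it had 15 genes, without water replicate 2 of 0 DAD or water replicate 2 or 3 or ethanol replicate 3 of 1 DAD 3, and without ethanol replicate 2 of 0 DAD or ethanol replicate 1 of 1 DAD 2. The average over 1, 3 and 5 DAD had 106 with DESeq2 (98 higher, 8 lower) and 23 to 159 when 1 library was left out (22 to 155 higher, 0 to 4 lower), with the 159 reached without ethanol replicate 3 of 3 DAD. The cause of these shifts was not tested.

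List medians moved when 1 library was left out: -0.58 to 0.24 for touch and wound genes, 0.20 to 0.75 for jasmonate, 0.10 to 0.53 for the cold regulon, -0.21 to 0.0115 for the morning and 0.59 to 0.91 for the evening clock, -0.31 to 0.18 for ethanol to acetyl-CoA, -0.39 to 0.49 for hypoxia, 0.47 to 0.67 for sugar starvation, -0.90 to -0.29 for sulfur deficiency, -0.34 to 0.12 for iron, -0.24 to -0.0111 for nitrate, -0.96 to -0.74 for flavonoids, 0 to 0.18 for heat shock and 0.0093 to 0.24 for antioxidant enzymes. The antioxidant median was 0.0245 with the 6 libraries alone, against 0.11, or 0.01 with the gene that had no reads in 1 group at its limit. The median of all genes was -0.01 with library totals or DESeq2 size factors, against -0.02. No named gene that was called turned its direction under any alternative.

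Replicate numbers paired the samples unevenly: deviations of same-numbered ethanol and water libraries at 0 DAD correlated at 0.32, 0.06 and 0.17 for numbers 1, 2 and 3. Pairs of a replicate 1 with another number correlated at -0.28 to -0.08, and water replicate 3 correlated best with ethanol replicate 2. On the first principal component (33.4%), replicate 1 of water and of ethanol lay at -20 and -50.8, and the other libraries at 10.4 to 25.5. The main test used no block. With the replicate block, 323 genes were called at 0 DAD. On the 6 libraries alone 709 were called with the block (399 higher, 310 lower) and 77 without it. The block gave 8 genes for the change between days and 50 for the later average. The lowest total, 3625884 reads in ethanol replicate 1, limits what can be called at low levels.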
